A study of Mus musculus with 32 samples.

Results

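The 9 genes described here, Cux1, Cux2, Rorb, Pou3f2, Bcl11b, Fezf2, Tbr1, Foxp2, and Tle4, encode transcriptional regulators that mark the layers of the cerebral cortex. They were chosen by name from the 49671 genes of the count table, not by a threshold on their values but with earlier results of these data known, and all 9 passed the filter on low counts in every fit. The study asked how extracellular miRNAs act on neurons. Primary cultures of wild-type (WT) C57BL/6 mice, prepared from the forebrain at embryonic day 17 to 18 and kept in Neurobasal medium with B27 supplement, were left untreated or received 10 µg/mL of an oligoribonucleotide. The oligoribonucleotides were Mut.oligo, a mutated control sequence, and 2 miRNAs, miR-92a-1-5p and the neuronal miR-124-5p. RNA was sequenced after 6 h or 5 d, with 4 biological replicates per condition and time point and 32 libraries in all. Which animals or culture preparations stand behind a replicate is not given in the sources used here, so p-values measure the spread between these libraries.

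Cortical projection neurons are born in an inside-out order, and each layer keeps a characteristic set of transcription factors. Cux1, Cux2, and Pou3f2 (Brn2) mark the callosal neurons of the upper layers, and Rorb marks the input layer between upper and deep layers. Bcl11b (Ctip2) and Fezf2 define subcerebral neurons of the deep layers, Tbr1 and Foxp2 mark corticothalamic neurons, and Tle4 is a corepressor of the same deep neurons. In a dissociated culture the layers themselves are lost, and only the expression of these genes remains to be measured.

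The miRNA miR-92a-1-5p is shown because its seed (bases 2 to 8, in capitals) can be compared with the 3′ UTRs of the members. Its RefSeq record lies at chr14:115044437-115044459 on the plus strand of GRCm38.p6, in Mir92-1.
miR-92a-1-5p: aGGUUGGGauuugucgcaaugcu
The 7 letters complementary to this seed occurred in the annotated 3′ UTR of 2 of the 9 members, with 2 sites in Cux1 and 1 in Foxp2. Each site is printed with its surroundings, 30 bases of GRCm38 read along the transcript, with the seed match in capitals.
Cux1, chr5:136268835-136268864, minus strand: gttttttaactCCCAACCcataattatctt
Cux1, chr5:136269176-136269205, minus strand: aatgtgcacgcCCCAACCctcggttattca
Foxp2, chr6:15439812-15439841, plus strand: atactttttccCCCAACCaagggacctcat
Such a match was present in 9.0% of 20851 genes with a 3′ UTR, and in 11.4% of the 15086 genes whose UTR length lay within the range of the members. The median UTR of these 15086 genes had 1444 bases against 4014 in the members, so the set was not matched in length. Thus 2 of 9 is a description and not a tested excess. The values of Cux1 and Foxp2 after exposure to miR-92a-1-5p are given with the exposures.

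The libraries held 24514090 to 73626029 counted reads, with a median of 33021610 at 6 h and 50126395 at 5 d. Every member had at least 574 reads in every library. Counting error was not compared with the spread between replicates for each group. Levels are given as CPM, the reads of a gene scaled to the counted reads of its library, or as RPKM, which divides CPM by the exon length in kilobases and is used where genes are compared with each other. This length merges all annotated exons of a gene (20024 bases for Cux1, 3047 for Fezf2) and is not that of the transcripts expressed here. The summed CPM of 6 pan-neuronal genes was 4754 to 5364 at 6 h and 3991 to 5507 at 5 d, while that of 6 microglia genes stayed between 2.7 and 10.6 over all libraries. In bulk RNA, fewer cells of a type and less RNA per cell cannot be told apart.

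Bcl11b was the highest member per length in untreated neurons at 6 h, with 33.4 ± 5.6 RPKM (SD, n = 4). Tbr1 followed with 23.9 ± 3.06 RPKM, and the 4 libraries of each of these genes did not overlap with those of the next gene in the order. Pou3f2 (14.4 ± 1.55 RPKM), Fezf2 (14.1 ± 3.34 RPKM), Tle4 (13.4 ± 2.59 RPKM), and Cux2 (12.3 ± 0.796 RPKM) each overlapped with the next of these 4. Cux1 (10.04 ± 0.586 RPKM) was apart from Cux2 above it and from Rorb (3.49 ± 0.524 RPKM), and Rorb was apart from Foxp2 (2.07 ± 0.372 RPKM), the lowest member. At 5 d, Bcl11b was still the highest with 18.7 ± 0.994 RPKM. Cux2 stood in the seventh place with 5.32 ± 1.81 RPKM, and Foxp2 was again the last with 2.09 ± 0.773 RPKM. Apart from Bcl11b and Tbr1, and Cux2 and Rorb, neighbours in the 5 d order overlapped in their libraries.

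Between 6 h and 5 d, 5 of the 9 members fell in untreated neurons, and the remaining 4 did not pass the test. The members that fell were 3 upper-layer genes, Cux1, Cux2, and Pou3f2, and 2 deep-layer genes, Bcl11b and Tbr1. A gene was called at a Benjamini-Hochberg adjusted p under 0.05 in edgeR's quasi-likelihood test together with a log2 fold change below -0.5 or above 0.5. Of the 20425 genes tested, 14.3% fell and 19.1% rose by this rule. The same 5 members also fell in the exposed conditions, where 15.4% of genes fell with Mut.oligo, 14.7% with miR-124-5p, and 15.7% with miR-92a-1-5p. A fall in all 4 conditions was found for 10.1% of genes. No member rose in any condition, while 18.7% of genes rose with Mut.oligo, 19.5% with miR-124-5p, and 18.3% with miR-92a-1-5p.

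**Figure D1:**
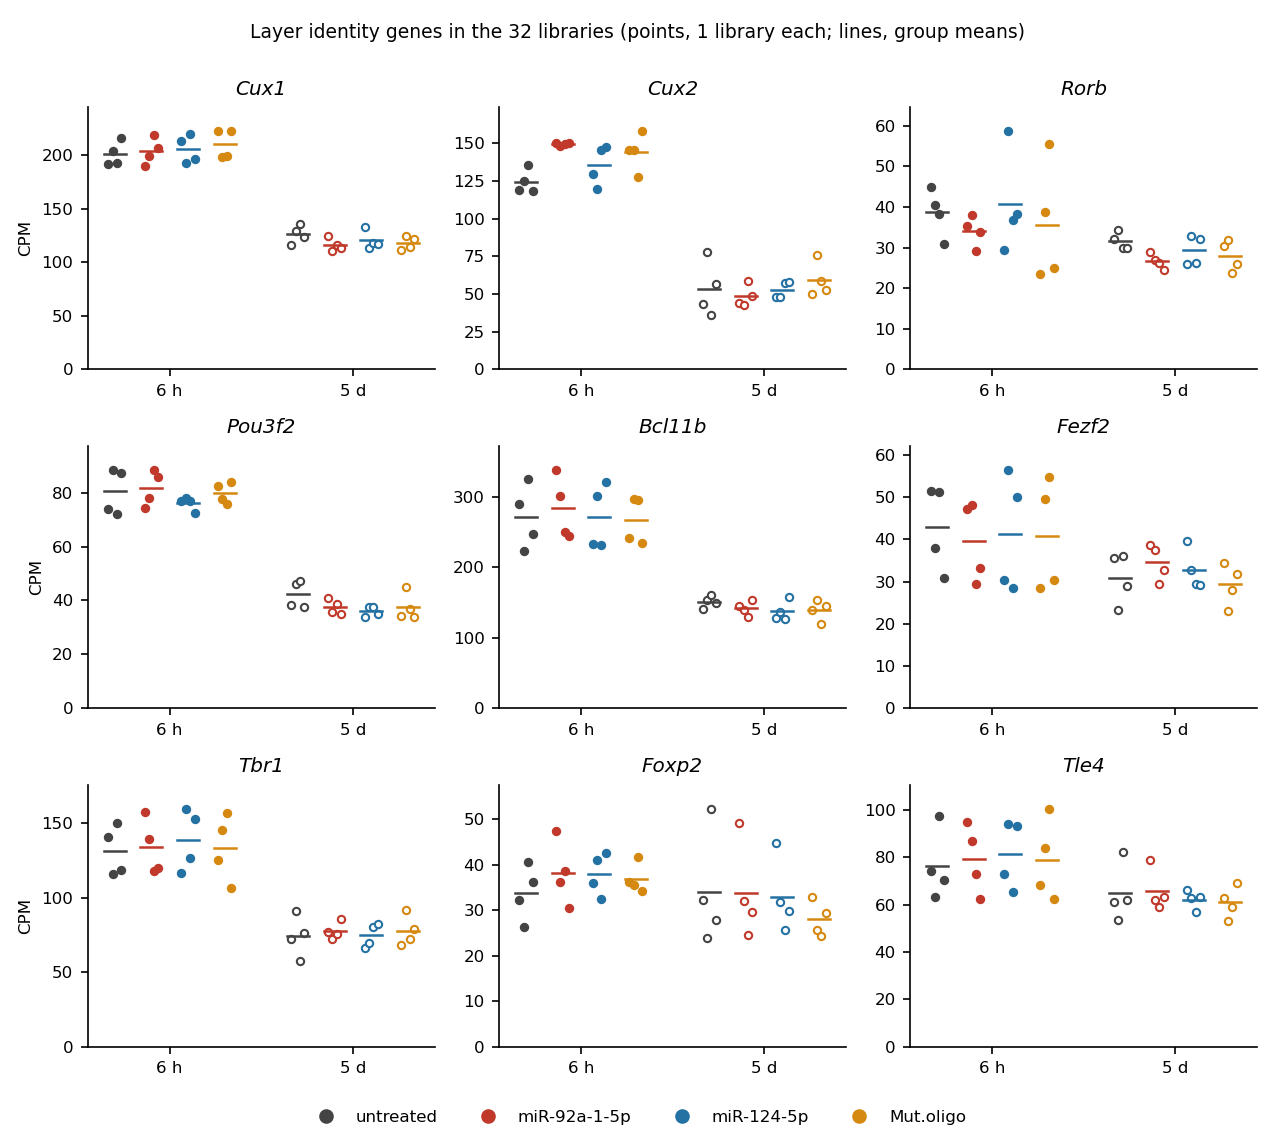
CPM of the 9 members in each library (points) at 6 h (filled) and 5 d (open), with group means as lines and conditions in colour. The 5 d points of Cux1, Cux2, Pou3f2, Bcl11b, and Tbr1 all lie below the 6 h points of the same gene, whereas those of Rorb, Fezf2, Foxp2, and Tle4 overlap.

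Cux2, a homeobox factor of upper-layer neurons, fell most. In untreated neurons it was at 119, 125, 136, and 118 CPM in replicates 1 to 4 at 6 h, and at 43.6, 78.1, 36.4, and 56.5 CPM at 5 d. The 5 d libraries were all lower, and replicates 2 and 3 were the farthest apart among them. The log2 fold change was -1.21 ± 0.168 (SE, adjusted p = 4.47e-07), and it lay between -1.05 without 5 d replicate 3 and -1.45 without 5 d replicate 2. After exposure it was -1.23 ± 0.168 with Mut.oligo, -1.36 ± 0.169 with miR-124-5p, and -1.61 ± 0.169 with miR-92a-1-5p. Over all conditions, the mean at 5 d was 38.7% of that at 6 h.

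Cux1, the paralogue of Cux2, fell less but with little spread between libraries. Its untreated libraries held 191, 204, 192, and 216 CPM at 6 h, and 116, 129, 136, and 123 CPM at 5 d. The log2 fold change was -0.68 ± 0.0581 in untreated neurons (adjusted p = 4.26e-11) and between -0.80 and -0.78 in the 3 exposed conditions. Exons of Cux1 overlap those of Gm16599 on the opposite strand, and the authors counted reads by strand.

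Pou3f2, a POU-homeobox factor of upper-layer neurons and their progenitors, was at 74.1, 88.5, 72.0, and 87.4 CPM in untreated neurons at 6 h and at 38.4, 46.2, 47.3, and 37.7 CPM at 5 d. The log2 fold change was -0.94 ± 0.0888 in untreated neurons (adjusted p = 4.10e-10) and between -1.11 and -1.05 after exposure. Its mean over all conditions fell to 48.2% of that at 6 h.

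Rorb, the nuclear receptor of the input layer, was called in no condition. Its untreated libraries spanned 31.0 to 44.8 CPM at 6 h and 29.8 to 34.4 CPM at 5 d, so the groups overlapped. The log2 fold changes were -0.30 (95% interval -0.72 to 0.11) in untreated neurons, -0.32 after Mut.oligo, -0.48 after miR-124-5p, and -0.35 after miR-92a-1-5p. With miR-124-5p the adjusted p was 0.0477 and the fold threshold was missed. Without replicate 1 of miR-124-5p at 6 h, Rorb passed with a log2 fold change of -0.58.

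Among the deep-layer members, Bcl11b, a zinc finger factor needed by subcerebral neurons, fell from 289, 223, 325, and 247 CPM at 6 h to 141, 154, 160, and 149.9 CPM at 5 d in untreated neurons. The 6 h libraries were the more variable of the groups, yet their lowest value was above the highest at 5 d. The log2 fold change was -0.86 ± 0.136 (adjusted p = 4.32e-06) in untreated neurons and between -0.99 and -0.90 in the exposed conditions.

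Tbr1, a T-box factor of corticothalamic and subplate neurons, was at 141, 116, 150.1, and 118 CPM at 6 h and at 72.3, 91.3, 57.3, and 76.1 CPM at 5 d. The log2 fold change was -0.83 ± 0.155 in untreated neurons (adjusted p = 4.36e-05), -0.74 after Mut.oligo, -0.90 after miR-124-5p, and -0.77 after miR-92a-1-5p.

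Fezf2, which specifies subcerebral neurons and acts upstream of Bcl11b in development, did not pass the test in any condition. It was at 51.5, 38.0, 51.3, and 31.0 CPM in untreated neurons at 6 h and at 35.5, 23.3, 36.1, and 28.9 CPM at 5 d, and the groups overlapped. The untreated log2 fold change was -0.49 ± 0.223, with an adjusted p of 0.0624 in edgeR. It passed with DESeq2 (-0.50, adjusted p = 0.0457), when only these 8 libraries were fitted (-0.51, adjusted p = 0.0307), and without untreated replicate 4 at 6 h (-0.59, adjusted p = 0.0321). With Mut.oligo it passed only without replicate 1 or replicate 4 at 6 h, with log2 fold changes of -0.57 and -0.58. After miR-92a-1-5p the log2 fold change was -0.19 (95% interval -0.64 to 0.27).

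Foxp2, a forkhead factor of corticothalamic neurons, was at 32.2, 26.3, 40.6, and 36.2 CPM in untreated neurons at 6 h and at 32.2, 24.0, 52.4, and 27.9 CPM at 5 d. Replicate 3 at 5 d held the highest value of all 32 libraries. The untreated log2 fold change was -0.02 (95% interval -0.41 to 0.37), and its sign was not stable when libraries were left out. Tle4 was at 74.2, 63.4, 97.5, and 70.4 CPM at 6 h and at 61.2, 53.5, 82.0, and 62.1 CPM at 5 d, with an untreated log2 fold change of -0.26 (95% interval -0.58 to 0.05). In the exposed conditions the log2 fold changes of Tle4 were -0.34 for Mut.oligo, -0.40 for miR-124-5p, and -0.26 for miR-92a-1-5p, and none was called. With miR-124-5p the adjusted p of Tle4 was 0.0309 in edgeR, and the fold threshold was missed.

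**Figure D2:**
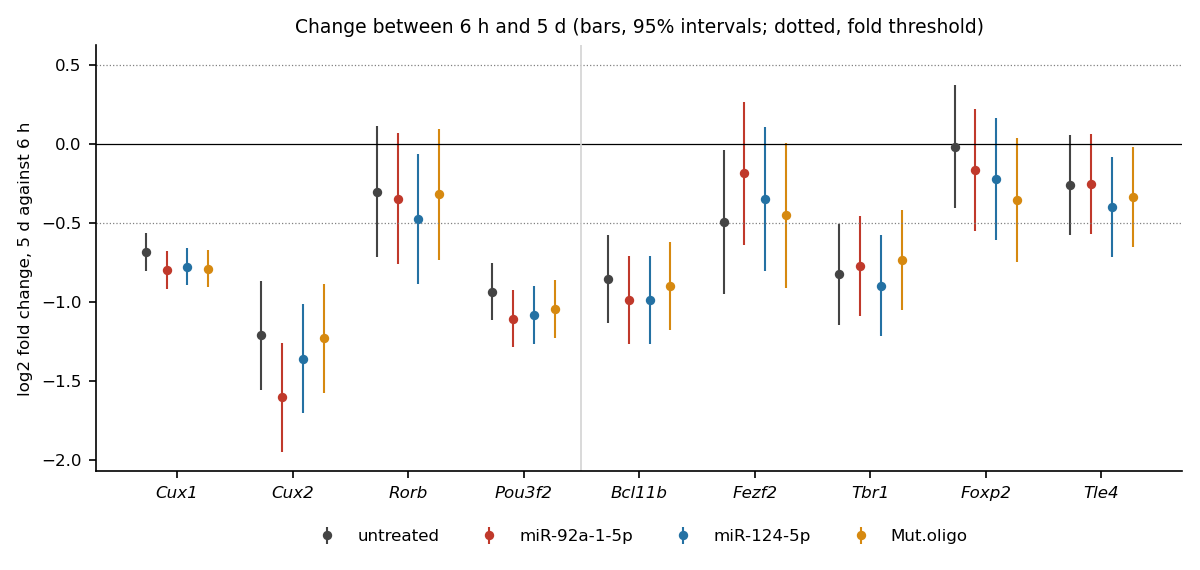
Log2 fold change of each member at 5 d against 6 h in the 4 conditions (points) with 95% intervals (bars), with upper-layer and input-layer genes on the left and deep-layer genes on the right of the vertical line. The intervals of Cux1, Cux2, Pou3f2, Bcl11b, and Tbr1 lie below 0 in every condition, and Cux2 has the lowest values, from -1.61 to -1.21.

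For each of the 5 members that fell, all 16 libraries at 5 d were below all 16 libraries at 6 h, a pattern found for 12.2% of the 20425 genes. Within single conditions, such a separation was found for 23.3% of genes in untreated neurons. Rorb with miR-92a-1-5p and Foxp2 with Mut.oligo were also lower in all 4 libraries at 5 d without passing the test, where 27.3% and 25.5% of genes were so separated. After scaling with TMM factors, the 5 members that fell were still separated over all libraries, whereas Rorb and Foxp2 overlapped in the conditions just named. Each of the 5 was called in all 60 alternative fits of the 4 conditions. The time points shared none of their experiment batches, a label of the samples with 7 values at 6 h and 6 at 5 d, so that time in culture and batch cannot be told apart. Within a time point the conditions shared batches, so the 4 conditions are not independent repeats of the fall.

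Other cell markers moved between the same time points. The summed CPM of 6 astrocyte genes was 209 to 596 at 6 h and 978 to 2139 at 5 d, and all 6 rose in untreated neurons. None of the astrocyte markers was at 0 at either time, and Aqp4 spanned 7.70 to 38.6 CPM at 6 h and 97.8 to 251 CPM at 5 d in untreated neurons. The summed CPM of the 6 pan-neuronal genes had means of 5162 at 6 h and 4862 at 5 d. Of 9 progenitor genes, 4 fell and none rose in every condition, and Mki67, a gene of dividing cells, went from 68.0 to 25.2 CPM in untreated neurons. The part of these shifts in the fall of the 5 members was not tested.

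Genes that are used as markers beside the members moved unevenly. Of 10 further upper-layer genes, 5 fell and 1 rose in untreated neurons, with a median log2 fold change of -0.65 against 0.04 over all genes. Pou3f3 and Pou3f1, relatives of Pou3f2, were 297 and 72.3 CPM at 6 h and 130.2 and 22.9 CPM at 5 d, with log2 fold changes of -1.20 and -1.65. Inhba, a subunit of activin, had a log2 fold change of -2.33. Unc5d, a netrin receptor of upper-layer neurons, rose from 57.6 to 143 CPM (log2 fold change 1.30). After exposure, 5 or 6 of the upper-layer genes fell and 2 rose.

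Of 12 further deep-layer genes, 3 rose and 1 fell in untreated neurons, with a median log2 fold change of 0.12. In the exposed conditions, 4 rose and 3 fell with Mut.oligo, 3 rose and 3 fell with miR-124-5p, and 4 rose and 1 fell with miR-92a-1-5p. Crym, which encodes a thyroid hormone-binding protein, rose with a log2 fold change of 0.92, and Ntsr1, a receptor of corticothalamic neurons, rose with 0.60. Syt6 fell, with a log2 fold change of -0.54. Nfib passed the fold threshold only with Mut.oligo, at -0.51, against -0.35 in untreated neurons. Of the subplate genes, Nr4a2 fell from 50.6 to 17.0 CPM (log2 fold change -1.59) and Moxd1 rose from 1.08 to 2.22 CPM, while 4 of 6 did not pass in untreated neurons. Cplx3 passed after miR-92a-1-5p and Lpar1 after miR-124-5p but neither in untreated neurons, where Lpar1 had a mean of 3.71 CPM at 5 d. Of the Cajal-Retzius genes, Calb2 and Reln rose (log2 fold changes 1.36 and 0.74), and Calb2 was also on the list of thalamic genes.

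Among 6 genes of projection neurons, 3 fell and 1 rose in each condition. Neurod2, Neurod6, and Emx1, transcription factors of young excitatory neurons, had log2 fold changes of -1.73, -1.02, and -0.93 in untreated neurons. Slc17a7, the vesicular glutamate transporter of mature excitatory synapses, rose from 34.0 to 117 CPM, with a log2 fold change of 1.78.

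**Figure D3:**
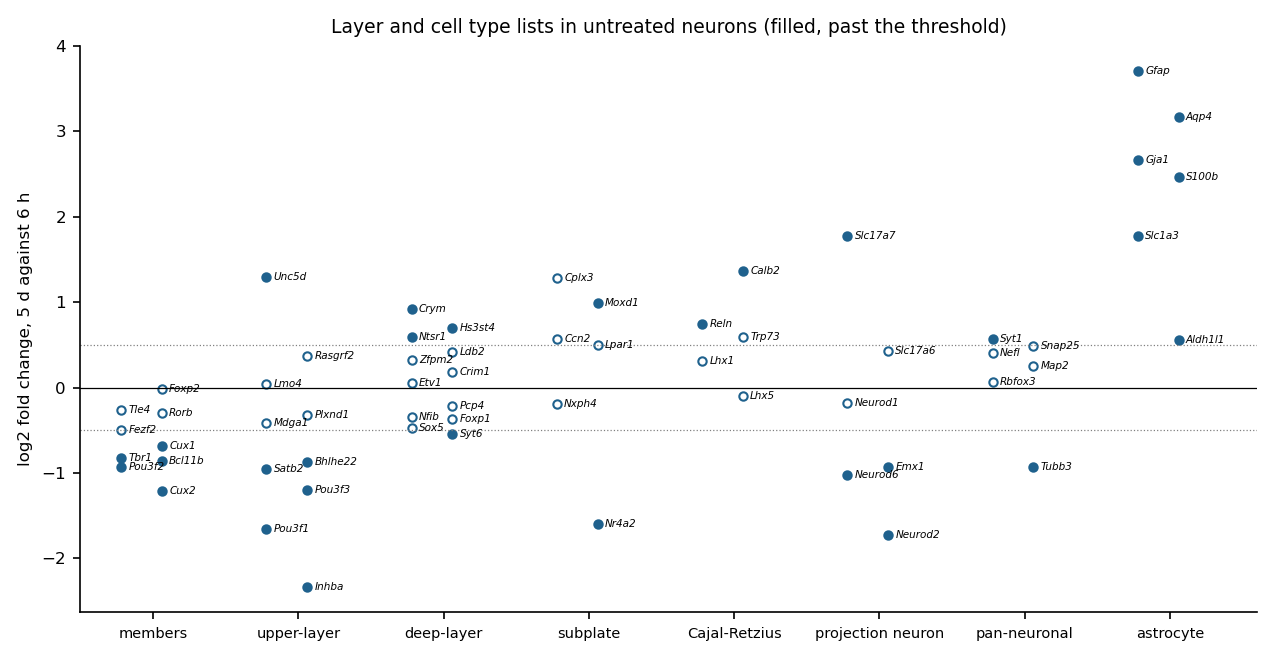
Log2 fold change at 5 d against 6 h in untreated neurons for the 9 members and for genes of 7 marker lists (points, 1 gene each, filled where called). The members span -1.21 to -0.02, further upper-layer genes lie mostly below 0, and the 6 astrocyte genes lie above 0.5.

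No exposure moved a member past both the p and the fold threshold. None of the 9 was called in any of the 6 comparisons of an oligoribonucleotide with untreated neurons, either with edgeR or with DESeq2. None was called under any alternative, but the fits with experiment batch were run only with the fold threshold. In those fits, Cux2 after miR-92a-1-5p at 6 h had an adjusted p under 0.05 and missed only the fold threshold. In edgeR without batch, 0.0% of the 18755 genes tested at 6 h were called in each of the 3 comparisons. At 5 d, 0.00517% of 19333 genes (1 gene) were called after miR-92a-1-5p and 0.0% after either of the other oligoribonucleotides. Between 503 and 1780 genes per comparison had an unadjusted p under 0.05, and DESeq2 without batch called 0 to 29. When experiment batch was added to the model, edgeR called 39 genes after miR-92a-1-5p, 4 after Mut.oligo, and 0 after miR-124-5p at 6 h, and DESeq2 called 26, 8, and 1. At 5 d these fits called 68, 9, and 5 genes with edgeR and 118, 17, and 17 with DESeq2, in the same order of exposures. No member was among them. In edgeR without batch, the log2 fold changes over the 54 values of the 9 members were between -0.23 and 0.26. Their 95% intervals reached from -0.69 to 0.62 and include the spread between batches, and 2 values had an unadjusted p under 0.05. Libraries of the same batch deviated together, and with batch in the model the standard errors of the members were lower. The 3 comparisons of a time point share the untreated libraries.

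**Figure D4:**
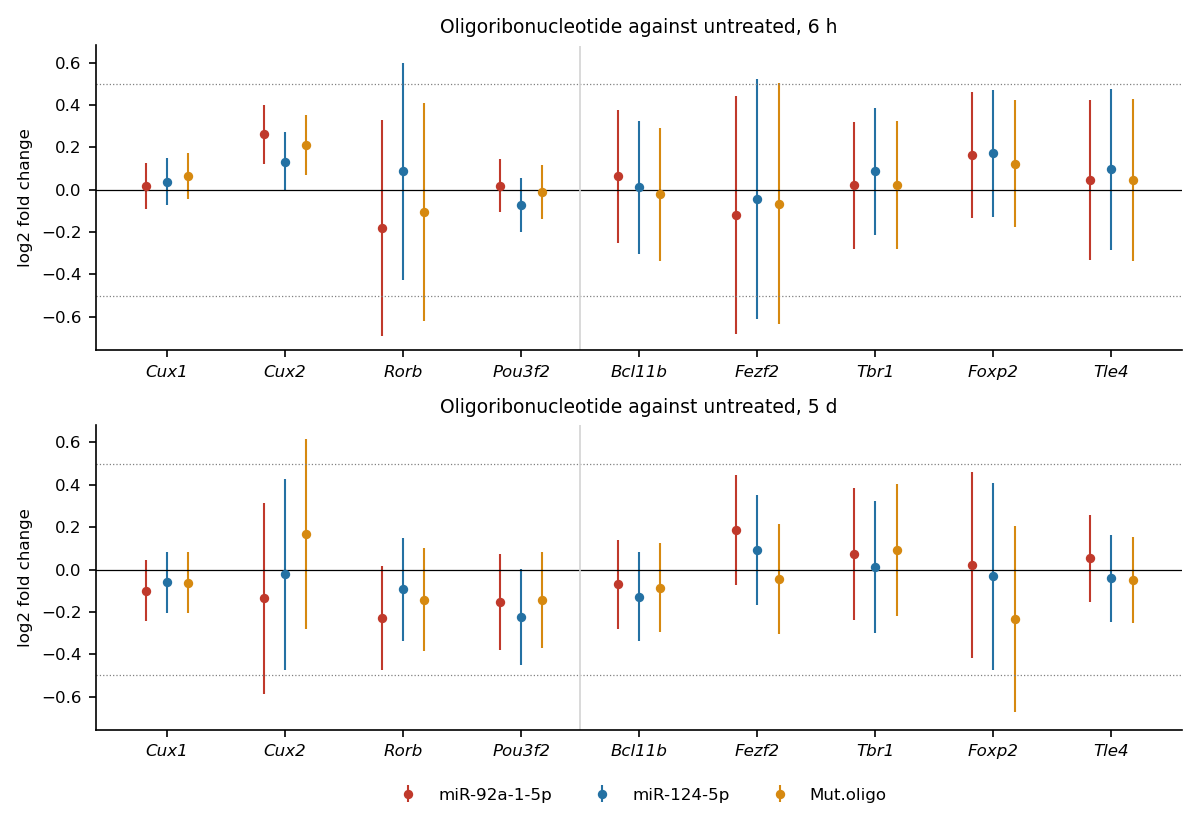
Log2 fold change of each member after each oligoribonucleotide against untreated neurons at 6 h and 5 d (points) with 95% intervals (bars), and the fold threshold of 0.5 dotted. Values are from the fit without experiment batch. All points lie between -0.23 and 0.26, and the intervals of Rorb and Fezf2 at 6 h are the widest.

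Both values with an unadjusted p under 0.05 in the fit without batch belonged to Cux2 at 6 h. Against untreated levels of 118 to 136 CPM, Cux2 was at 149.8, 148, 149.6, and 150.1 CPM after miR-92a-1-5p, so that all 4 libraries were above the untreated ones. Such a separation upward was found for 1.94% of genes in this comparison. The SD of Cux2 was 0.863 CPM after miR-92a-1-5p, against 8.02 CPM in untreated neurons, 12.5 CPM after Mut.oligo, and 13.5 CPM after miR-124-5p. After Mut.oligo, the control sequence, Cux2 was at 145.8, 145.8, 128, and 158 CPM, and after miR-124-5p at 129, 119.6, 146, and 148 CPM. Both groups overlapped with the untreated libraries. The log2 fold changes were 0.13 ± 0.0663 after miR-124-5p (adjusted p = 1.00), 0.21 ± 0.0663 after Mut.oligo (adjusted p = 0.386), and 0.26 ± 0.0660 after miR-92a-1-5p (adjusted p = 0.700). When experiment batch was added to the model, the last of these had an adjusted p of 0.0106 in edgeR and of 0.000157 in DESeq2, still below the fold threshold. In edgeR, 0.507% of genes were higher at an adjusted p under 0.05 in this fit. In the same fit the adjusted p was 0.205 after Mut.oligo and 0.893 after miR-124-5p.

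Within the 4 experiment batches that held both an untreated and a miR-92a-1-5p library at 6 h, the exposed library had the higher Cux2 level in each, by 0.14, 0.31, 0.31, and 0.28 on the log2 scale. Of the other members, Foxp2 was also higher in all 4 of these pairs (0.07 to 0.22), and Rorb (-0.25 to -0.11) and Fezf2 (-0.18 to -0.09) were lower in all 4. With batch in the model, their adjusted p values in edgeR were 0.236 for Foxp2, 0.508 for Rorb, and 0.254 for Fezf2. Cux2 was higher after Mut.oligo than in untreated neurons in both batches with such a pair, by 0.09 and 0.26, and after miR-124-5p in both, by 0.10 and 0.12. Directly against Mut.oligo, the miRNAs moved no member past the threshold at 6 h or 5 d. In the fit without batch, the log2 fold changes of these 36 values were between -0.30 and 0.26. None had an unadjusted p under 0.05 with edgeR, and DESeq2 called none either. In each of the 4 comparisons, 0.0% of genes were called in the fit without batch. With batch in the model, miR-92a-1-5p differed from Mut.oligo in 0 genes at 6 h and 2 at 5 d with edgeR, and in 1 and 13 with DESeq2, none of them a member, while 0 genes differed for miR-124-5p. At 5 d, the Cux2 libraries of the 3 exposures overlapped with the untreated ones. Rorb was at 29.0, 26.9, 26.1, and 24.5 CPM after 5 d of miR-92a-1-5p. In CPM these 4 libraries lay below the untreated ones, as was the case for 1.78% of genes. The lowest untreated library, replicate 3, was at 29.8 CPM with a TMM factor of 1.07, against a factor of 1.01 for the highest exposed library, replicate 1. After scaling with these factors, the groups overlapped. The log2 fold change of Rorb was -0.23 (95% interval -0.47 to 0.02), with an adjusted p of 1.00.

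Cux1 and Foxp2, whose 3′ UTRs hold the printed seed matches, were not lower after miR-92a-1-5p beyond the replicate error in the fit without batch. Cux1 was at 189, 199, 219, and 207 CPM after 6 h, with a log2 fold change against untreated of 0.02 (95% interval -0.09 to 0.13), and at 124.2, 110.2, 116, and 113 CPM after 5 d, with -0.10 (95% interval -0.24 to 0.04). Foxp2 was at 47.4, 36.2, 38.7, and 30.5 CPM after 6 h, with 0.17 (95% interval -0.13 to 0.46) and the higher value in each of the 4 batch pairs given above, and at 49.2, 32.1, 24.6, and 29.6 CPM after 5 d, with 0.02 (95% interval -0.42 to 0.46). Each of these groups overlapped with its untreated libraries, and the intervals leave changes of these sizes undetected. Within the 2 batches that held both libraries at 5 d, the log2 differences were -0.11 and -0.04 for Cux1, and 0.02 and 0.10 for Foxp2. At 5 d, Cux1 was also lower in all 3 such pairs with Mut.oligo and in both with miR-124-5p. With batch in the model, the lowest adjusted p of any member after miR-92a-1-5p at 5 d was 0.545 in edgeR.

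The change between time points was also compared between the exposed and the untreated condition. For no member did the difference of the changes pass the test, and 0.0% of genes did with each oligoribonucleotide in the fit without batch. With batch in the model, 28 genes passed for miR-92a-1-5p, 2 for Mut.oligo, and 1 for miR-124-5p with edgeR, and 95, 6, and 1 with DESeq2, but no member. In the fit without batch, the 27 differences lay between -0.39 and 0.31 on the log2 scale. None had an unadjusted p under 0.05 with edgeR, and DESeq2 called none. The lowest belonged to Cux2 with miR-92a-1-5p, at -0.39 (95% interval -0.87 to 0.09).

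At 6 h, all members but Cux2 varied mainly between the experiment batches. For Fezf2, 97.4% of the variation among the 16 libraries lay between the 7 batches, followed by Bcl11b with 97.0% and Tbr1 with 95.7%, against a median of 62.4% over all genes. Between treatments it was 1.61% for Fezf2, 2.84% for Bcl11b, and 2.35% for Tbr1. Pou3f2 lay near the median of all genes, with 66.1% between batches, and Rorb, Foxp2, Cux1, and Tle4 were at 78.8% to 90.0%. Cux2 was the exception, with 27.0% between batches and 51.3% between treatments. The shares of batch and treatment were computed separately and overlap, since only 1 batch held all 4 conditions at 6 h, and there were more batches than treatments. Bcl11b was at 320.7 to 339 CPM in the 3 libraries of 1 batch and at 234 to 250.2 CPM in the 4 libraries of another, and Fezf2 was at 47.3 to 51.3 CPM and at 28.4 to 31.0 CPM in the same batches.

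**Figure D5:**
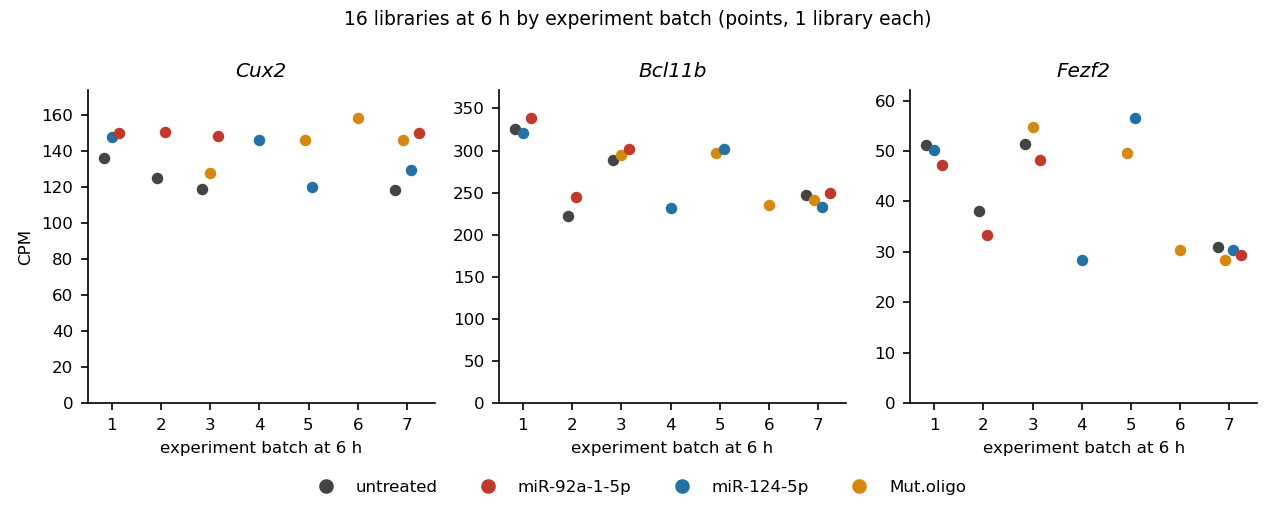
CPM of Cux2, Bcl11b, and Fezf2 in the 16 libraries at 6 h (points), by experiment batch on the horizontal axis and condition in colour. Bcl11b and Fezf2 differ between batches and lie close together within them, whereas Cux2 after miR-92a-1-5p lies above the untreated library in each of the 4 batches that hold both.

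The libraries whose omission let Fezf2 or Rorb pass between the time points, untreated replicate 4, Mut.oligo replicate 1, and miR-124-5p replicate 1 at 6 h, were all from the batch with the low Fezf2 values. Mut.oligo replicate 4 was alone in its batch, with Fezf2 at 30.4 CPM. At 5 d, 96.7% of the variation of Foxp2 and 95.3% of that of Cux2 lay between the 6 batches, against a median of 53.5% over all genes. Foxp2 was at 44.8 and 49.2 CPM in a batch of 2 libraries and at 52.4 CPM in untreated replicate 3, which was alone in its batch, while it was at 24.0 to 32.9 CPM in all the other libraries. Cux2 had its lowest value, 36.4 CPM, in the same untreated replicate 3, and its highest, 75.9 and 78.1 CPM, in the 2 libraries of another batch.

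For each member that fell, the genes with the most similar course over the 32 libraries were sought by the root-mean-square difference of log2 CPM, each gene centred on its own mean. Closest to Cux1 were Abl1, a tyrosine kinase (0.0632), and Ewsr1, an RNA-binding protein (0.0673), where the median gene differed from Cux1 by 0.425. Closest to Cux2 were Nuak1 (0.150) and Trp53i11 (0.157), and closest to Pou3f2 were Fam210b (0.108) and Pou3f3 (0.121). Bcl11b was followed most closely by Fam84a (0.112) and Klhl29 (0.123), and Tbr1 by Samd10 (0.128) and Lrrc20 (0.131). Among the members themselves, Bcl11b and Tbr1 were the closest pair, with a difference of 0.151, although one marks subcerebral and the other corticothalamic neurons. As all libraries share the change between time points and the batches, the likeness is a description of these 32 libraries.

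Promoter sequences were read for the members from RefSeq (GRCm38.p6), from 250 bases before to 50 bases after the start, and 8 of the 9 members had at least 1 entry. They were searched on both strands for the POU octamer ATTTGCAT, the T-box motif AGGTGTGA, the CUT motif ATCGAT, the ROR core TAGGTCA, the E-box CAGATG, and the TATA motif TATAAA. The Cux2 start at chr5:122047776-122048075, minus strand, is shown because Cux2 fell most and because its window held 3 of these motifs, in capitals.
Cux2: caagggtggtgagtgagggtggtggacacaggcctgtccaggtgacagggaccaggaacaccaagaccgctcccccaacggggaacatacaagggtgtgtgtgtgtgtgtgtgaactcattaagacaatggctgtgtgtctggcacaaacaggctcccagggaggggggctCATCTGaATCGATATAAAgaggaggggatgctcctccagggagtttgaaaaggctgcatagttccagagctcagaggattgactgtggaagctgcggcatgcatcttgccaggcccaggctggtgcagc
In this run the E-box is read on the opposite strand, and the CUT and TATA motifs overlap. CUT was found in 0.925%, the E-box in 17.2%, and TATA in 13.6% of 32851 promoters of this length. Bcl11b, at chr12:108003365-108003664 on the minus strand, is the other member with a match, a TATA motif on the opposite strand, and is shown for comparison.
Bcl11b: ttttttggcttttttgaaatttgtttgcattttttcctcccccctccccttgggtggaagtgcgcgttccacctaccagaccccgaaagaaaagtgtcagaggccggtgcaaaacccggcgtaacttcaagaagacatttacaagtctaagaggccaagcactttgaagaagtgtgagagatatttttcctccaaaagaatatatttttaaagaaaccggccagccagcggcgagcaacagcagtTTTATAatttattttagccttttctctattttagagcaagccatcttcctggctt
The second Cux2 entry, at chr5:122049802-122050101 on the minus strand, held 80.3% G and C bases against 56.7% in the first, and a median of 52.7% over all promoters. It contained none of the motifs, and neither did the entries of Cux1, Fezf2, Pou3f2, Rorb, Tbr1, and Tle4. A match describes only these letters, and no binding was measured.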

How the data were processed

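The deposited table held counts of reads per gene, without normalization. Per the study's methods, the authors sequenced stranded mRNA libraries as single 75-base reads, mapped them to GRCm38 (M12, Ensembl 87) with STAR 2.7.3a, and counted reads on exons by strand with featureCounts of Subread 2.0.0. Groups came from the sample labels, and 0 columns were left over. Identifiers were matched to GENCODE M21 of the same build (49326 of 49671 with a symbol). The 48 replicate pairs all differed by more than sampling noise.

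Genes that reached 5 counts in 3 or more libraries were tested with edgeR 4.0.16 in R 4.3.3 (TMM, quasi-likelihood test, no covariate, Benjamini-Hochberg adjustment over all genes tested). Exposures were fitted on the 16 libraries of a time point, and the change between time points on all 32. The fits were tested on simulated data. Alternatives were the experiment batch, the replicate number, DESeq2 1.42.0, RLE factors, other filters, no minimum fold change, fits of only the compared groups, and the omission of single libraries. Same-numbered libraries of different groups did not deviate together as a rule (56 pairs, correlations -0.40 to 0.69, median -0.02), so numbers were not treated as pairs. The median was -0.09 in the 45 same-numbered pairs from different batches. It was 0.41 in the 25 pairs from the same batch, some of which also shared a number. Members and lists were chosen with earlier results of these data known. Besides the members, up to 4 called genes per layer list with the smallest p were named, and the 2 most similar genes per member that fell. Markers of cell types are given as levels and as counts of called genes.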

Additional observations from a re-analysis of the deposited data

How the results depend on the processing

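The number of members called, computed for 17 comparisons, stayed within 1.5 times its value in all 305 alternative fits. It was 0 in each exposure comparison and between 5 and 7 in each time comparison. The fits with experiment batch were run only with the fold threshold. With the replicate number as a block, 5 members were called between the time points in every condition and 0 in every other comparison. The numbers did not pair the libraries as a rule, since 19 of 56 same-numbered pairs had correlations above 0.1, against 24 of 25 pairs from the same experiment batch.

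Of 659 alternative fold changes, 14 changed sign, all of members that were not called. For Foxp2 between the time points in untreated neurons, the log2 fold change was 0.00500 without a filter on low counts and between -0.26 and 0.13 when single libraries were left out. For Foxp2 after miR-92a-1-5p at 5 d it was -0.00698 with the replicate block and between -0.20 and 0.26 when single libraries were left out. Leaving out single libraries gave -0.47 to 0.00837 for Rorb between the time points with Mut.oligo, and -0.0194 to 0.0517 for Cux1 after miR-92a-1-5p at 6 h. Another 8 passed the threshold under an alternative, for Fezf2, Rorb, and Tle4. Tle4 and Rorb with miR-124-5p passed without a minimum fold change, and Rorb also when a single library was left out. The cause was not tested. Over all genes, adding experiment batch to the model raised the calls after miR-92a-1-5p against untreated from 0 to 39 at 6 h and from 1 to 68 at 5 d in edgeR. The standard errors of the members were lower in that fit in every exposure comparison, for example after miR-92a-1-5p at 6 h from 0.267 to 0.0465 for Fezf2, from 0.148 to 0.0291 for Bcl11b, and from 0.242 to 0.108 for Rorb. Depth did not limit the member values.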

Other observations

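Interneuron genes, which mark inhibitory neurons that reach the cortex from the ventral forebrain, were measured beside the cortical layer genes. Of 9 such genes, 5 fell and 0 rose between 6 h and 5 d in untreated neurons, while 5 fell and 2 rose with Mut.oligo, 4 fell and 1 rose with miR-124-5p, and 5 fell and 1 rose with miR-92a-1-5p. Their summed CPM was 859 to 1068 at 6 h and 727 to 1159 at 5 d, so the ranges overlapped. The summed CPM of 9 genes of striatal projection neurons, another population of the forebrain that expresses Bcl11b, was 163 to 231 at 6 h and 148 to 272 at 5 d, with 2 genes that rose and 2 that fell in untreated neurons and 1 that rose and 2 that fell in each exposed condition. What share of the Bcl11b reads came from such neurons was not tested.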
